A study of Mus musculus with 10 samples.

Results

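Chromatin accessibility was compared between innate lymphoid cells (ILCs) with deletion of the nuclear receptors RORgt and RORa and control ILCs. The members are the 3 RORgt-RORa-KO and the 3 Control libraries, 6 of the 10 libraries of the series, over all 36251 peaks outside the Y chromosome. RORgt-RORa-KO mice carried Id2creERT2+, tdRFP+, Roraf/f and a floxed RORgt allele. RORgt-KO mice (n = 2), used here only at named peaks, carried Id2creERT2+, tdRFP+ and the floxed RORgt allele. Control mice carried Id2creERT2+ and tdRFP+ with no floxed allele listed. All mice were C57BL/6, all groups were fed tamoxifen, which activates the Cre, for weeks before the sort, and a library came from 1 mouse or from 2 or 3 pooled mice. ILCs were sorted from the small intestinal lamina propria, the connective tissue under the gut epithelium. No label gives the age or sex of the mice, the sort markers or which exons are floxed. Id2 is expressed by all ILC groups, so the deletion is not limited to one of them.

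ILCs are lymphocytes without rearranged antigen receptors. Group 3 ILCs depend on RORgt and make interleukin-17 and interleukin-22, which act on the gut epithelium, whereas group 1 ILCs depend on T-bet and make interferon-gamma. RORgt and RORa are related nuclear receptors that bind a common DNA element built on the motif AGGTCA, and RORa is also needed for group 2 ILCs. ATAC-seq reads pile up where the Tn5 transposase can reach the DNA, so a peak marks an open stretch such as a promoter or an enhancer.

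Levels are the authors' log2 scaled read counts per peak, on which a difference of 1 is 2-fold. A change is the RORgt-RORa-KO mean minus the Control mean, with limma's moderated standard error (SE) and a p adjusted over all peaks. A peak is called at an adjusted p under 0.05 and carries the name of the nearest protein-coding gene within 50 kb, which need not be the gene it acts on. The libraries held 2825693, 2271585 and 4733829 reads in peaks in RORgt-RORa-KO, and 3381784, 3361390 and 2518233 in Control. The median peak held 45, 37 and 67 reads in RORgt-RORa-KO and 48, 49 and 39 in Control. Across peaks, libraries correlated at 0.908 to 0.944 within RORgt-RORa-KO, at 0.91 to 0.928 within Control and at 0.741 to 0.819 between the groups. All 8 ILC identity genes examined had a peak, among them Ptprc, which encodes CD45, Thy1, Id2 and Il7r. All 13 housekeeping genes examined did too, so having a peak does not test identity. Of the 53 peaks of the identity genes, 10 were higher (18.9%) and 5 lower (9.43%), against 15.1% and 16.1% over all peaks. Cd7, Id2, Ptprc, Rora and Thy1 had only higher called peaks, Gata3 and Il7r only lower, and Il2rg none. Il7r was called at 1 of 5 peaks, with a median change of 0.25 over its peaks. In a sorted population, fewer cells of a type and less signal per cell cannot be told apart.

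Peaks at 5 promoters are shown first, because they hold changes in both directions at signature genes. At each, the 250 bases before the RefSeq start (GRCm38.p6) are printed 5′ to 3′ on the strand of the gene, with capitals at matches, on either strand, to AGGTCA (nuclear receptor motif), AGGTGTGA (T-box element), TGTGGT (RUNX site) or TGANTCA (AP-1 site). The first pair fell in RORgt-RORa-KO: Il17f (chr1:20784271-20784520, minus strand), which encodes interleukin-17F, and Il23r (chr6:67491856-67492105, minus strand), which encodes the receptor chain through which interleukin-23 drives group 3 ILCs. The other promoters rose: Nkg7 (chr7:43436888-43437137, plus strand) and Prf1 (chr10:61297586-61297835, plus strand), which serve cytotoxic granules, and Ifng (chr10:118440796-118441045, plus strand), which encodes interferon-gamma.
Il17f: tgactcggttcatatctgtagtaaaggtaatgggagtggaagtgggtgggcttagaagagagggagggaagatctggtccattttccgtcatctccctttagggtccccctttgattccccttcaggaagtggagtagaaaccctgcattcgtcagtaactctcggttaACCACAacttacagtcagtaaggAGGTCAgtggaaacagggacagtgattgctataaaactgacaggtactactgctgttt
Il23r: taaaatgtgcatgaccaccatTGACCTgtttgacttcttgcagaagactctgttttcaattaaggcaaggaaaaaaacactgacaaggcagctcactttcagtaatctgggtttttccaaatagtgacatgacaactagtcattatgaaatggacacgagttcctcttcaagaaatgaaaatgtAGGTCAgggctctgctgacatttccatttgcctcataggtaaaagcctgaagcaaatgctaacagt
Nkg7: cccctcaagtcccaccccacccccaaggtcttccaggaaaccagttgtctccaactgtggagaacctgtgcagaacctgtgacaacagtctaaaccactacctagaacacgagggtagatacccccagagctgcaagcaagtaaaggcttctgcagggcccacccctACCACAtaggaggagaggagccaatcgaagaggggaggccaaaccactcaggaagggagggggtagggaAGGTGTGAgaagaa
Prf1: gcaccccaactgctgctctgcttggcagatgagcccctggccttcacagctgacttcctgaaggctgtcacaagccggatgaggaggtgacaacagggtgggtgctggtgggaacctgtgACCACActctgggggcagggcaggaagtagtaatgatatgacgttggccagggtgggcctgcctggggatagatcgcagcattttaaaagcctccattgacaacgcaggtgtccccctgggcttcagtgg
Ifng: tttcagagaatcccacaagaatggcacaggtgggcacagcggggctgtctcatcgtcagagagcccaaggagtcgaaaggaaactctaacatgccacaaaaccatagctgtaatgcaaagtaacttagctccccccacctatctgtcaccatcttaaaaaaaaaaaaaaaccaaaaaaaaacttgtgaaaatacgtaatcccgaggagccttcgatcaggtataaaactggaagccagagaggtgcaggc
The capitals in Il17f are a RUNX match 81 bases and an AGGTCA match 58 bases before the start. Il23r has AGGTCA matches 229 and 66 bases before its start. Nkg7 has a RUNX match at 83 and a T-box match at 14 bases, and Prf1 has a RUNX match at 130 bases. The Ifng window holds none of these 4 motifs. A match is a description of the letters and not a bound site.

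Open chromatin changed at 11326 of 36251 peaks (31.2%) in RORgt-RORa-KO, with 5491 higher (15.1%) and 5835 lower (16.1%). By at least 2-fold, 7384 peaks changed (20.4%). The libraries of the groups did not overlap at 14265 peaks (39.4%), and among called peaks this held for 91.5% of the higher and 94.2% of the lower ones. Higher peaks had a median level of 6.38 in RORgt-RORa-KO and 5.14 in Control, and a median change of 1.17. Lower peaks had a median level of 5.06 in RORgt-RORa-KO and 6.57 in Control, and a median change of -1.35. Large changes were more often losses: 1471 peaks fell and 727 rose by at least 4-fold, and 245 fell and 97 rose by at least 8-fold. The median change over all peaks was 0.02.

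**Figure D1:**
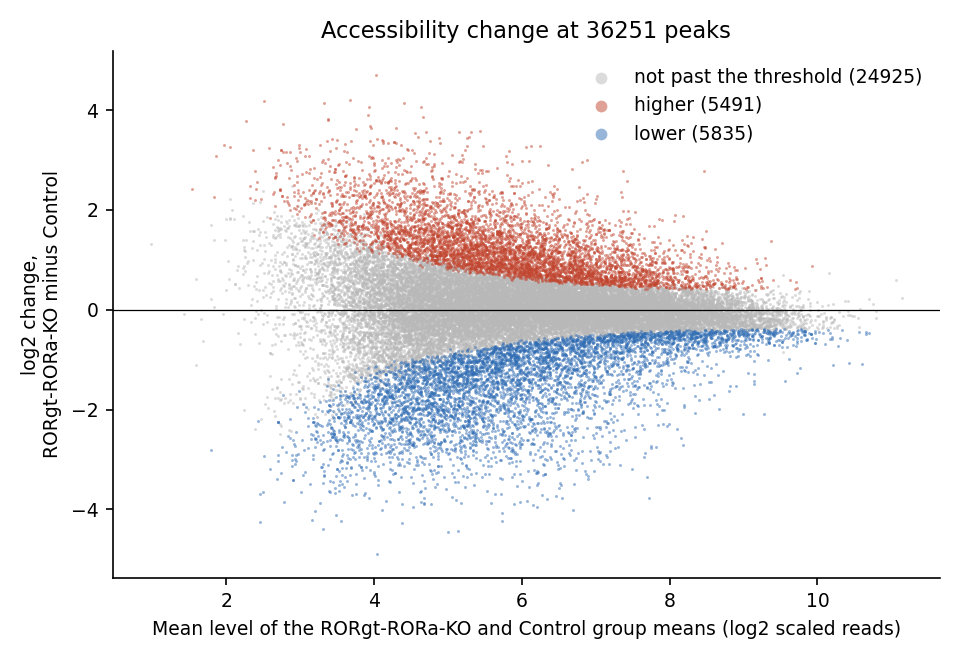
Change (log2, RORgt-RORa-KO minus Control) against the mean level of both groups for 36251 peaks, each a point, coloured by call. The 5491 higher and 5835 lower peaks lie on both sides of 0 at all but the most accessible peaks, where changes are small.

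Genes of type 3 cytokines lost accessibility. Of 46 peaks at 11 genes for type 3 cytokines and mediators, 19 fell (41.3%) and 5 rose (10.9%), with a median change of -0.41. Over all peaks, 16.1% fell and 15.1% rose. Ccl20, Hbegf, Il17a, Il17f, Il22 and Tnfsf11 had only lower called peaks, Lta and Tnfsf4 only higher, Csf2 and Il2 both, and Ltb none. Tnfsf4 was called at 1 of 5 peaks, with a median change of -0.02 over its peaks. Of the peaks in these genes or within 5 kb, 4 of 17 fell (23.5%) and 2 rose (11.8%). The median change of these was -0.04, so most losses lay farther out.

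Il17a, which encodes interleukin-17A, had 5 peaks, of which 4 fell, by 1.92 to 3.29. The peak 5891 bp from the gene (chr1:20740387-20740965) had levels of 5.65, 4.73 and 5.70 in RORgt-RORa-KO, against 8.73, 8.69 and 8.34 in Control. It fell by 3.23 (SE 0.22, limma adjusted p = 1.61e-11), and the groups were far apart. A peak 4946 bp away held 9, 5 and 7 reads in RORgt-RORa-KO, against 68, 85 and 42 in Control. The peak at 20743815, between lower ones, changed by -0.42 (SE 0.31, adjusted p = 0.318).

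At the neighbouring gene Il17f, 2 of 3 peaks fell. The peak over the promoter printed above (chr1:20784151-20784670) stood at 4.39, 4.52 and 4.84 in RORgt-RORa-KO, against 7.77, 8.07 and 7.64 in Control. That is a change of -3.24 (SE 0.24, limma adjusted p = 5.96e-11). The peak 16924 bp away lies between both genes. It fell by 2.82 (SE 0.22), and the third peak changed by -0.11 (SE 0.19, adjusted p = 0.711).

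Il22 encodes interleukin-22, which prompts epithelial defence and repair. Its peak 13890 bp from the gene (chr10:118190146-118190694) had levels of 5.24, 4.14 and 3.93 in RORgt-RORa-KO, against 6.83, 7.0 and 6.56 in Control, and fell by 2.36 (SE 0.33, limma adjusted p = 2.68e-06). The peak that overlaps a RefSeq promoter window fell by 1.46 (SE 0.27). The remaining pair changed by -0.14 (SE 0.24) and by -1.54 (SE 0.63, adjusted p = 0.0618), so 2 of 4 passed. Ccl20, the ligand of CCR6 that draws cells to lymphoid follicles, fell at a peak 18712 bp away by 2.60 (SE 0.31), with levels of 5.07, 4.28 and 4.01 in RORgt-RORa-KO and 7.14, 7.29 and 6.74 in Control.

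Genes for type 3 receptors and surface proteins did not move one way. Of their 86 peaks, 14 rose (16.3%) and 15 fell (17.4%), shares near the 15.1% and 16.1% of all peaks. Without RORgt-RORa-KO replicate 3, 9 rose. Cd93, Il17re, Il22ra2, Il7r, Nrp1 and Tnfrsf11a had only lower called peaks, and Ccr6, Cd4 and Kit only higher ones. Il7r and Nrp1 were each called at 1 of 5 peaks, and the median changes over their peaks were 0.25 and 0.15. Cd93, a surface glycoprotein gene, fell by 2.38 (SE 0.23) at a peak with levels of 5.01, 5.28 and 5.05 in RORgt-RORa-KO, against 7.67, 7.43 and 7.38 in Control. Kit, the stem cell factor receptor gene, rose by 1.45 (SE 0.25) at a peak 10451 bp away.

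Il23r changed in both directions within the gene. Its promoter peak (chr6:67491660-67492399), over the sequence above, had levels of 6.07, 5.86 and 6.30 in RORgt-RORa-KO, against 7.77, 7.86 and 7.17 in Control, and fell by 1.52 (SE 0.20, limma adjusted p = 1.22e-06). A second peak, inside the gene, fell by 1.31 (SE 0.32). Toward Il12rb2 the sign turned. The peak 7288 bp from Il23r (chr6:67415208-67415644) stood at 6.77, 7.07 and 6.66 in RORgt-RORa-KO and at 4.07, 3.54 and 4.48 in Control, and rose by 2.80 (SE 0.30, adjusted p = 3.49e-08). Of the 10 peaks named after Il23r, 4 rose and 2 fell.

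Il12rb2 encodes the chain through which interleukin-12 induces interferon-gamma, and all 5 of its peaks rose. At chr6:67347988-67348479 the levels were 7.48, 7.86 and 7.42 in RORgt-RORa-KO, against 4.62, 4.69 and 4.48 in Control (change 2.99, SE 0.25, limma adjusted p = 3.69e-10). The peak at chr6:67367869-67368223 held 56, 44 and 106 reads in RORgt-RORa-KO and 6, 1 and 2 in Control. The promoter peak rose less, by 1.10 (SE 0.23). Together with 4 peaks of Il23r these formed a run of 9 neighbouring higher peaks over 111.8 kb, with changes of 1.10 to 4.71.

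**Figure D2:**
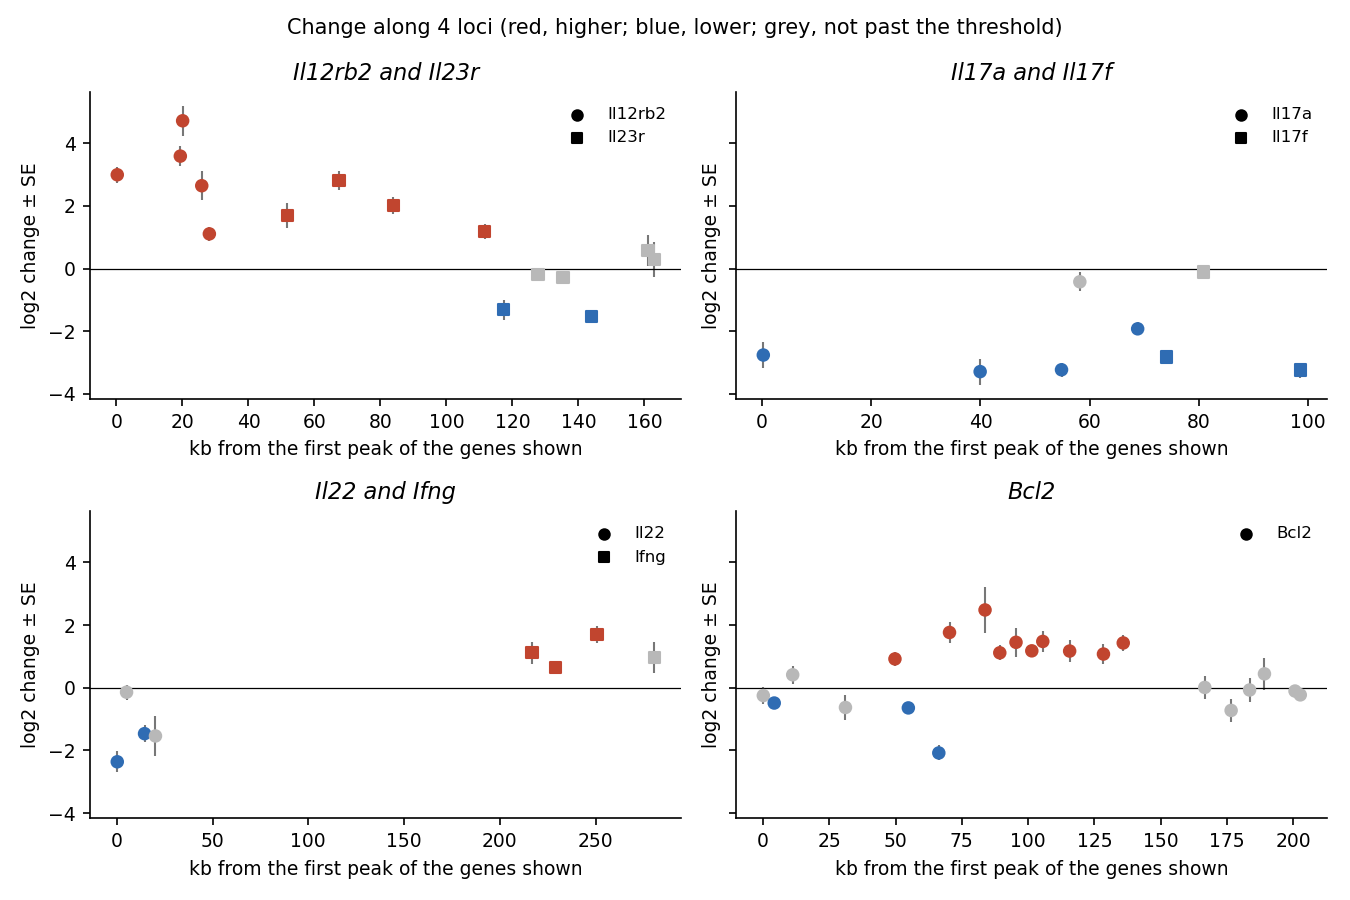
Change (log2 ± SE, RORgt-RORa-KO minus Control) of each peak against its distance in kb from the first peak shown, at 4 loci, coloured by call. The sign turns inside Il23r, the Il17a and Il17f peaks that passed all fell, the Il22 peaks that passed (2 of 4) fell while the Ifng peaks that passed (3 of 4) rose in the same chromosomal stretch, and a lower peak of Bcl2 adjoins a run of 9 higher ones.

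Cytotoxic effector genes gained accessibility. Of 53 peaks at 13 genes, 31 rose (58.5%) and 2 fell (3.77%), against 15.1% and 16.1% over all peaks, with a median change of 0.75. Cst7, Ctsc, Fasl, Gzmb, Nkg7, Prf1, Rab27a, Serpinb9 and Tnfsf10 had only higher called peaks, Srgn had both, and Gzmc, Lamp1 and Unc13d had none. The summed signal of the list, in reads scaled to equal library totals (RPM), ran from 1851 to 1972 RPM in RORgt-RORa-KO and from 1159 to 1211 in Control.

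Nkg7, a granule membrane protein needed for degranulation, stood at 8.72, 8.82 and 8.73 in RORgt-RORa-KO, against 5.83, 5.62 and 6.48 in Control, at the peak over its promoter (chr7:43436391-43437339). The change was 2.78 (SE 0.19, limma adjusted p = 2.52e-11), and the groups were far apart. The perforin gene Prf1 had 3 peaks and all rose. The one over its promoter (chr10:61297051-61297868) had levels of 7.92, 7.94 and 7.74 in RORgt-RORa-KO, against 6.26, 5.69 and 6.23 in Control, and rose by 1.80 (SE 0.20).

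Fasl encodes the Fas ligand, a death signal on cytotoxic cells. Of its 9 peaks, 7 rose and 0 fell. At chr1:161774831-161775542 the levels were 7.61, 7.39 and 7.66 in RORgt-RORa-KO, against 5.28, 4.96 and 5.63 in Control, a rise of 2.27 (SE 0.24, limma adjusted p = 2.71e-08). Srgn, the granule proteoglycan gene, included a peak that fell by 1.77 (SE 0.25).

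Type 1 cytokine and chemokine genes moved the same way. Of 34 peaks at 9 genes, 20 rose (58.8%) and 2 fell (5.88%), against 15.1% and 16.1% over all peaks, with a median change of 0.985. Ccl1, Ccl3, Ccl4, Ccl5, Ifng, Il10 and Xcl1 had only higher called peaks, Il21 only lower and Tnf none. Il10 was called at 1 of 3 peaks, with a median change of 0.014 over its peaks.

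At Ifng, 3 of 4 peaks rose. The promoter peak (chr10:118440597-118441155) was at 6.51, 6.77 and 6.81 in RORgt-RORa-KO, against 5.02, 4.96 and 5.0 in Control (change 1.71, SE 0.27, limma adjusted p = 1.53e-05). Xcl1 encodes a chemokine for cross-presenting dendritic cells, and 6 of its 8 peaks rose. The one 18083 bp away had levels of 6.65, 6.88 and 6.95 in RORgt-RORa-KO, against 3.37, 3.69 and 3.85 in Control (change 3.19, SE 0.29). Ccl5 rose by 1.39 (SE 0.21) and Ccl4 by 2.49 (SE 0.39), both encoding chemokines. A peak 32603 bp from Il21 fell by 2.08 (SE 0.29). Of the other higher Ifng peaks, the one at 118406871 did not pass without RORgt-RORa-KO replicate 2 (change 1.00, adjusted p = 0.0551) and the one at 118418790 not without RORgt-RORa-KO replicate 3 (0.52, adjusted p = 0.0625).

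**Figure D3:**
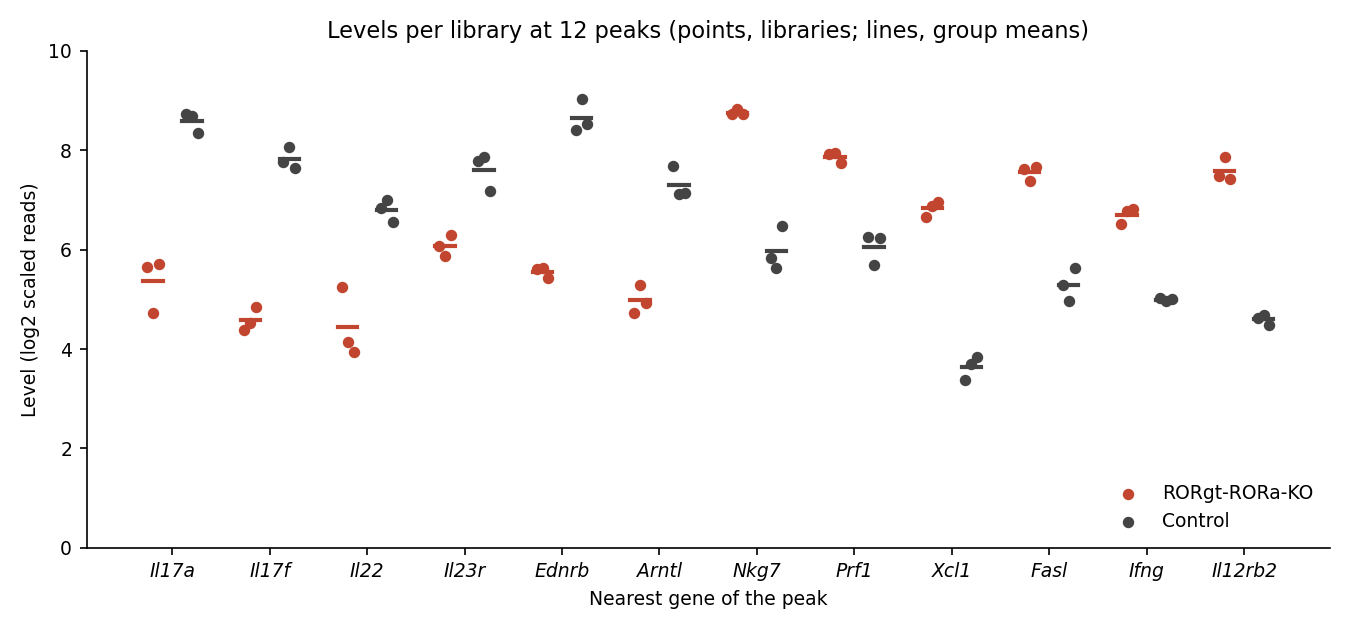
Level (log2 scaled reads) in each RORgt-RORa-KO and Control library (points) with the group mean (line) at 1 peak of each of 12 genes. The groups do not overlap at any of these peaks: RORgt-RORa-KO libraries are lower from Il17a to Arntl and higher from Nkg7 to Il12rb2. The peaks were picked with their values known.

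Cytokine receptor genes gained accessibility. Of 106 peaks at 24 genes, 49 rose (46.2%) and 8 fell (7.55%), against 15.1% and 16.1% over all peaks, with a median change of 0.60. The higher count was 36 without RORgt-RORa-KO replicate 3, 40 without Control replicate 1, 38 without the mean-variance trend and 57 with voom. The lower count was 5 without Control replicate 1 and 5 without Control replicate 2. Only higher called peaks were found at 13 genes, among them Il12rb2, Il18r1 and Il18rap, Il21r, Il2rb, Il4ra, Ifnar1, Ifngr2, Tgfbr1 and Tgfbr2. Il12rb1, the partner chain of Il12rb2, and Il17ra had only lower ones. Il12rb1 stood at 5.84, 4.28 and 6.18 in RORgt-RORa-KO, against 6.77, 6.94 and 6.79 in Control, and fell by 1.40 (SE 0.31).

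Il21r, the interleukin-21 receptor gene, rose at all 5 peaks. At chr7:125635429-125635862 levels were 7.32, 7.08 and 7.07 in RORgt-RORa-KO, against 4.69, 4.28 and 4.38 in Control (change 2.71, SE 0.24, limma adjusted p = 1.69e-09). With 2 peaks of Il4ra and those of the next gene, Gtf3c1, they made a run of 9 higher peaks over 63.1 kb. Tgfbr2, a TGF-beta receptor gene, rose at 8 of 12 peaks and fell at none. Its peak 36670 bp away had levels of 6.44, 5.95 and 6.56 in RORgt-RORa-KO and 4.62, 4.28 and 5.0 in Control (change 1.68, SE 0.29).

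NK receptor genes split. Of 75 peaks, 16 rose (21.3%) and 10 fell (13.3%), against 15.1% and 16.1% over all peaks, and the median change was -0.08. The lower count was 5 without RORgt-RORa-KO replicate 1, 4 without Control replicate 1 and 5 without Control replicate 2. Tyrobp, which encodes the signalling adaptor DAP12, rose at a peak 2440 bp away that stood at 6.32, 6.10 and 6.53 in RORgt-RORa-KO, against 1.96, 2.37 and 4.26 in Control (change 3.45, SE 0.45, limma adjusted p = 8.62e-07). Ncr1, Cd160, Klrd1, Klrg1, Slamf7 and Tigit were among the genes with only higher called peaks. For Ncr1 this was 1 of 3 peaks, and for Klrg1 1 of 6, with a median change of -0.23 over the Klrg1 peaks. Klrc1, which encodes the inhibitory receptor NKG2A, went down, with 5.13, 5.86 and 5.30 in RORgt-RORa-KO against 8.65, 8.53 and 8.17 in Control (change -3.02, SE 0.21). The other genes with only lower called peaks were Klrb1b, Klrb1c, Klrb1f and Klrk1. Members of the Klrb1 and Klrc families are alike in sequence, and how the authors treated reads that map to several places is not stated.

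**Figure D4:**
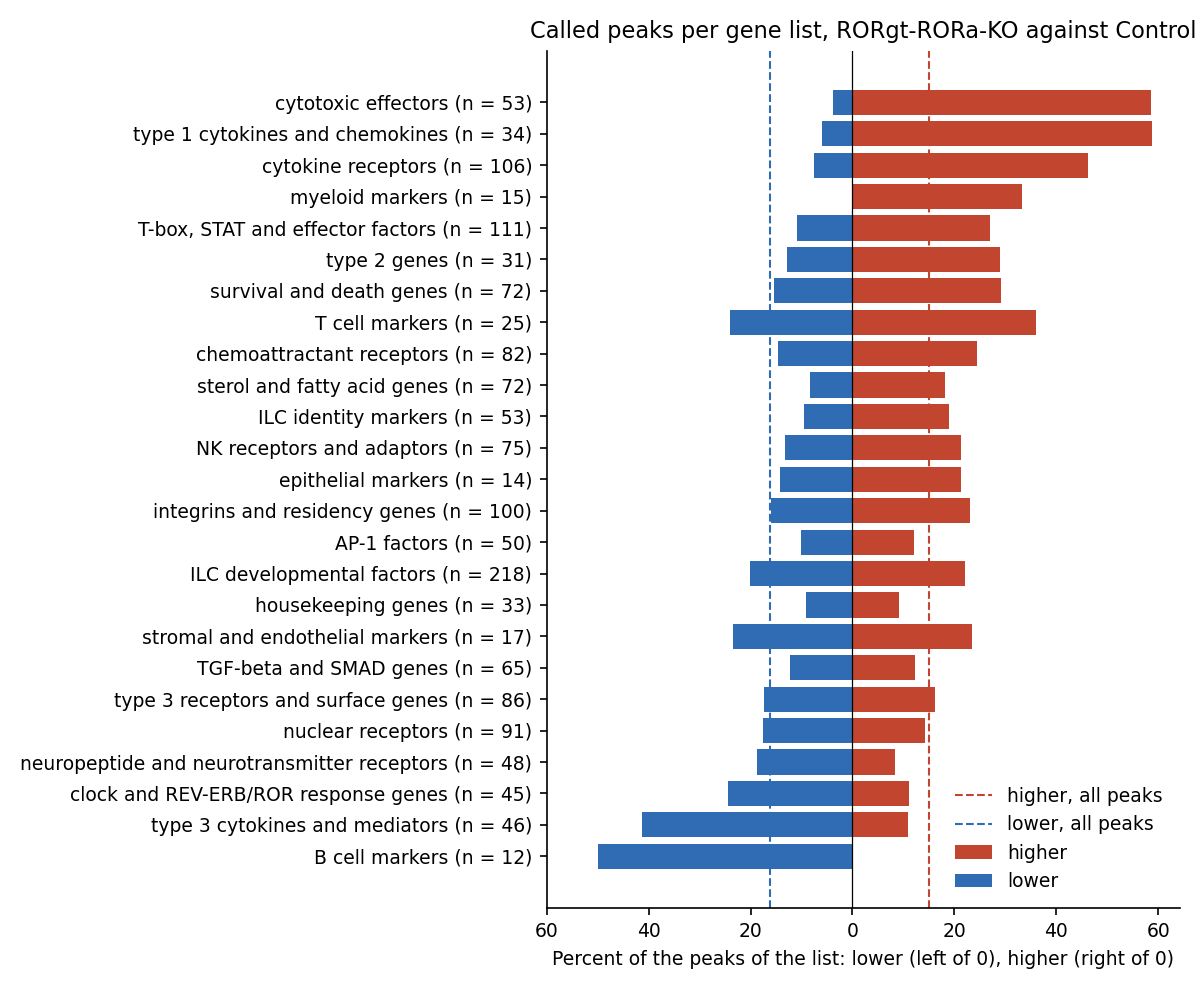
Share of the peaks of each gene list called higher (right of 0) and lower (left of 0) in RORgt-RORa-KO, in percent, with the number of peaks in brackets; dashed lines mark 15.1% higher and 16.1% lower over all peaks. Cytotoxic, type 1 and cytokine receptor lists reach furthest to the right, and type 3 cytokines and the 12 peaks of B cell markers furthest to the left.

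Transcription factor genes were examined next. Of 14 peaks named after Rora, the targeted gene, 3 rose and 0 fell. The peak at chr9:69034174-69034938 was at 7.72, 7.61 and 7.92 in RORgt-RORa-KO, against 7.18, 6.37 and 6.38 in Control (change 1.11, SE 0.21). The higher peak at 69304284 (change 0.61, SE 0.18) did not pass without RORgt-RORa-KO replicate 3 (0.50, adjusted p = 0.0565) or without Control replicate 2 (0.54, adjusted p = 0.0505), nor without the mean-variance trend (0.61, adjusted p = 0.0505). A peak outside the deleted exons does not test the deletion. Among T-box, STAT and effector factors, 30 of 111 peaks rose (27.0%) and 12 fell (10.8%), against 15.1% and 16.1% over all peaks. Tbx21, which encodes T-bet, rose at 1 of 3 peaks, by 1.17 (SE 0.26), with levels of 6.57, 6.34 and 5.73 in RORgt-RORa-KO and 5.07, 5.07 and 5.0 in Control.

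Egr2, an early growth response factor gene, had a peak 30316 bp away at 7.89, 8.09 and 7.79 in RORgt-RORa-KO, against 6.07, 5.50 and 5.72 in Control (change 2.16, SE 0.21, limma adjusted p = 1.21e-08). Its only other peak, over the promoter, changed by 0.03 (SE 0.17, adjusted p = 0.92). Irf1, an interferon response factor gene, rose by 2.03 (SE 0.26). Maf, which encodes c-MAF, and Bach2, a repressor of effector programmes, each had peaks of both signs. Their deepest losses were -2.90 (SE 0.53) and -3.06 (SE 0.40).

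Factors of ILC development changed in both directions: 48 of 218 peaks rose (22.0%) and 44 fell (20.2%), against 15.1% and 16.1% over all peaks. Zeb2 had a peak 26777 bp away with levels of 6.63, 6.84 and 6.84 in RORgt-RORa-KO, against 9.23, 9.27 and 8.68 in Control (change -2.29, SE 0.17, limma adjusted p = 9.37e-11). Runx3, a RUNX factor gene of cytotoxic lymphocytes and group 1 and 3 ILCs, rose at 7 of 13 peaks and fell at none. Runx2 included a peak that fell by 1.55 (SE 0.17). Ikzf1, Zbtb16 and Ets1 had peaks that rose by 1.81, 1.64 and 1.65 (SE 0.23, 0.23 and 0.26), and each of these genes also had a lower peak. Gata3, which is also among the ILC identity genes, had 4 of 7 peaks lower and 0 higher.

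The clock and REV-ERB/ROR response genes had 5 of 45 peaks higher (11.1%) and 11 lower (24.4%), against 15.1% and 16.1% over all peaks. Arntl, which encodes the clock activator BMAL1, was at 4.73, 5.28 and 4.93 in RORgt-RORa-KO, against 7.68, 7.11 and 7.14 in Control, at chr7:113250772-113251426 (change -2.33, SE 0.25). Another of its 4 peaks rose by 1.16, and the one over its promoter changed by 0.24 (SE 0.15, limma adjusted p = 0.238). Cry1, a clock repressor gene, fell by 2.51 (SE 0.43) and Bhlhe40 by 1.48 (SE 0.17), the second gene also with a higher peak. Per3 rose by 1.11 (SE 0.18). Cry2, Hlf and Nr1d1 had only lower called peaks, and Clock, Dbp, Nr1d2, Per1 and Per2 none.

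Genes of homing and gut residence were mixed. Chemoattractant receptor genes had 20 of 82 peaks higher (24.4%) and 12 lower (14.6%), and integrin and residency genes 23 of 100 (23.0%) and 16 (16.0%). Over all peaks, 15.1% were higher and 16.1% lower. Cxcr3, a receptor of type 1 cells, rose by 1.40 (SE 0.20), with levels of 7.47, 7.87 and 7.71 in RORgt-RORa-KO and 6.18, 6.42 and 6.26 in Control. S1pr1, the receptor for egress to lymph, had a peak that fell by 1.46 (SE 0.16) and one 40832 bp away that rose by 1.37 (SE 0.25). A peak of Itgb1 rose by 2.34 (SE 0.28).

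Among survival and death genes, 21 of 72 peaks rose (29.2%) and 11 fell (15.3%), against 15.1% and 16.1% over all peaks. Bax, Bid, Bmf and Tnfrsf10b had only higher called peaks, and Bbc3, Bcl2a1b, Birc3 and Pmaip1 only lower. Bcl2, Bcl2l1, Bcl2l11 and Cflar had both, and Bak1, Fas and Mcl1 none. The lower count was 6 without RORgt-RORa-KO replicate 1, 6 without Control replicate 1 and 5 without Control replicate 2. Bcl2 alone had 10 higher and 3 lower of 22 peaks. At chr1:106577564-106578301, inside the gene, the levels were 6.13, 6.52 and 5.80 in RORgt-RORa-KO, against 8.40, 8.47 and 7.82 in Control (change -2.08, SE 0.24). The next 9 peaks, over 65.9 kb, all rose, by 1.08 to 2.48.

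Neuropeptide and neurotransmitter receptor genes had 4 of 48 peaks higher (8.33%) and 9 lower (18.8%), against 15.1% and 16.1% over all peaks. Ret, the receptor for glial neurotrophic factors on group 3 ILCs, rose at a peak in the gene by 1.67 (SE 0.21) and fell at one 27394 bp away by 1.67 (SE 0.21). Of 72 peaks of sterol and fatty acid genes, whose products include RORgt ligands, 13 rose (18.1%) and 6 fell (8.33%). Ch25h, the cholesterol 25-hydroxylase gene, fell by 2.48 (SE 0.27), with levels of 4.94, 4.52 and 4.01 in RORgt-RORa-KO and 7.10, 7.06 and 6.76 in Control. Type 2 genes had 9 of 31 peaks higher (29.0%) and 4 lower (12.9%). Nuclear receptors had 13 of 91 higher (14.3%) and 16 lower (17.6%), shares near those of all peaks. AP-1 factors had 6 of 50 higher (12.0%) and 5 lower (10.0%), and TGF-beta and SMAD genes 8 of 65 higher (12.3%) and 8 lower (12.3%). The last 2 lists lie below the shares of all peaks in both directions. Some of these counts moved when 1 library was left out. Without Control replicate 3, 10 sterol peaks fell, and without Control replicate 2, 10 nuclear receptor peaks fell. The TGF-beta peaks that rose numbered 3 without RORgt-RORa-KO replicate 1 or replicate 3, 4 without Control replicate 1 and 5 without Control replicate 2. Of the AP-1 peaks, 13 rose with voom and 3 without the mean-variance trend. Housekeeping genes had 3 of 33 peaks higher (9.09%) and 3 lower (9.09%), with 1 lower without RORgt-RORa-KO replicate 3 or Control replicate 1.

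Markers of other cells were counted in the same way, beside 15.1% higher and 16.1% lower over all peaks. These lists hold few peaks. Of 10 B cell markers, 7 had no peak, among them Cd79a and Ms4a1. The other genes, Blk, Ebf1 and Pax5, had 6 of 12 peaks lower and 0 higher, and their summed signal was 136.0 to 170.6 RPM in RORgt-RORa-KO and 241.9 to 280.0 in Control. T cell markers had 9 of 25 peaks higher (36.0%) and 6 lower (24.0%), with 604.2 to 666.9 RPM in RORgt-RORa-KO and 533.7 to 612.8 in Control. Cd3g, Cd6, Cd8a, Cd8b1, Foxp3 and Themis had no peak. Cd3d, Cd3e, Cd40lg and Zap70 had only higher called peaks, Cd247 and Cd5 only lower, Cd28 and Ctla4 both, and Lat none. Cd3e rose by 2.07 (SE 0.26) at a peak 79 bp from the gene, and Cd5 fell by 2.07 (SE 0.56) at its promoter peak. Myeloid markers had 5 of 15 peaks higher (33.3%) and 0 lower, with 254.0 to 274.0 RPM in RORgt-RORa-KO and 182.7 to 213.2 in Control. Without RORgt-RORa-KO replicate 3, 3 myeloid peaks rose. Csf1r, Lyz2, Cd68 and Mpeg1 had no peak. Epithelial markers had 3 of 14 peaks higher (21.4%) and 2 lower (14.3%), with 283.1 to 301.1 RPM in RORgt-RORa-KO and 203.7 to 241.4 in Control. Vil1 and Fabp2 had no peak. The lower epithelial count was 1 without RORgt-RORa-KO replicate 2 or 3 or Control replicate 1 or 2. Stromal and endothelial markers had 4 of 17 higher (23.5%) and 4 lower (23.5%), with 261.1 to 288.1 RPM in RORgt-RORa-KO and 232.4 to 260.5 in Control. Without RORgt-RORa-KO replicate 3, 2 of these rose and 2 fell, and 2 rose without Control replicate 1 or 3. The part of such cells in the results above was not tested.

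The RORgt-KO libraries give a second set of values at the peaks named so far. Between RORgt-RORa-KO and RORgt-KO, 534 of 36251 peaks (1.47%) differed, 120 higher (0.331%) and 414 lower (1.14%) in RORgt-RORa-KO. These peaks were named from the comparison with Control, which uses the same RORgt-RORa-KO libraries. Averaged over the 5835 peaks that were lower against Control, levels were 5.32, 5.31 and 5.08 in RORgt-RORa-KO, 5.68 and 5.74 in RORgt-KO, and 6.78, 6.84 and 6.55 in Control. Averaged over the 5491 higher peaks they were 6.41, 6.49 and 6.41 in RORgt-RORa-KO, 6.06 and 5.92 in RORgt-KO, and 4.95, 5.16 and 5.28 in Control.

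The Il17a peak at 20740387 was lower in RORgt-RORa-KO than in RORgt-KO, where it stood at 7.28 and 7.04, by 1.80 (limma adjusted p = 6.66e-05). The other lower Il17a peaks, at 20685830, 20725581 and 20754397, did not pass this test, with differences of 0.25 (SE 0.45), -0.55 (SE 0.46) and -0.78 (SE 0.24). Neither did the lower Il22 peaks, with -0.41 (adjusted p = 0.712) for the distal one and -0.69 (adjusted p = 0.328) for the promoter one. The Il17f promoter peak was lower by 1.43 (adjusted p = 0.00278). The Il23r promoter peak stood at 7.65 and 7.39 in RORgt-KO, and was lower in RORgt-RORa-KO by 1.44 (adjusted p = 0.000341). Against Control, which both comparisons share, it changed by -1.52 in RORgt-RORa-KO and by -0.08 in RORgt-KO.

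Lower in RORgt-RORa-KO than in RORgt-KO were also the peaks of Runx2 by 1.32 (limma adjusted p = 0.000117), Ednrb by 1.51 (adjusted p = 0.000222), Zeb2 by 1.07 (adjusted p = 0.00216) and Bach2 by 1.98 (adjusted p = 0.0157). Higher were the Egr2 peak 30316 bp away by 1.60 (adjusted p = 0.00021) and the Fasl peak at 161774831 by 1.5 (adjusted p = 0.00151). At Nkg7, Prf1, Ifng and the Il12rb2 peak at 67347988 the differences were 0.68, 0.36, 0.63 and 0.65, and none passed (adjusted p = 0.134, 0.553, 0.386 and 0.313).

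Large single changes also lay away from known ILC genes. The largest decreases were at a peak 1695 bp from the taste receptor gene Tas2r126, with 7, 0 and 2 reads in RORgt-RORa-KO and 84, 74 and 44 in Control, and at one inside Hibch, a valine catabolism gene, with 7, 4 and 7 reads in RORgt-RORa-KO and 154, 171 and 63 in Control. Snx13, a sorting nexin gene, had a peak at 4.65, 4.63 and 4.80 in RORgt-RORa-KO, against 8.84, 9.03 and 8.25 in Control (change -4.01, SE 0.24, limma adjusted p = 3.5e-12). Peaks in or near Rpia, Pakap, Mcub, Dppa2, Ddx60 and Olfr175 held 0 to 20 reads per library in RORgt-RORa-KO and 16 to 293 in Control.

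Among the increases, a peak in Riok1, a kinase gene of ribosome assembly, held 67, 90 and 79 reads in RORgt-RORa-KO and 7, 3 and 4 in Control. One in Prkce, a protein kinase C gene, held 55, 73 and 101 reads in RORgt-RORa-KO and 4, 9 and 3 in Control. Peaks in or near Cpq, Elovl5, Larp1, Lgals8, Snd1 and Washc3 held 22 to 76 reads per library in RORgt-RORa-KO and 0 to 15 in Control. The Dynlt1b peak that also ranked here held 31, 0 and 92 reads in RORgt-RORa-KO and 1, 0 and 0 in Control, and is uncertain because the gene has near-identical copies. Its groups overlap in reads and separate only on the deposited scale, where a peak without reads is listed at 0.9 of the value of 1 read in its library.

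Of the 13144 genes with a peak, 5323 (40.5%) had a called one: 2231 only higher, 2246 only lower and 846 both. Among the 1019 genes with 3 or more called peaks, 548 had both. Ednrb, the endothelin receptor B gene, fell at 7 of 8 peaks. Its promoter peak (chr14:103843392-103844434) was at 5.61, 5.63 and 5.43 in RORgt-RORa-KO, against 8.40, 9.04 and 8.52 in Control (change -3.10, SE 0.20, limma adjusted p = 9.81e-12). Plxna2, a semaphorin receptor gene, fell at all 8 of its peaks, by 0.94 to 3.30. Cdkal1 and Vps13d fell at 9 peaks each, of 13 and 22, and Dapk2, a death-associated kinase gene, rose at 8 of 10.

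Neighbouring called peaks tended to share a sign. Of adjacent peaks under 5 kb apart with both called, 84.0% moved the same way, against 66.3% beyond 100 kb. Losses formed the longer runs: 13 neighbouring peaks at Trmt9b and Dlc1 over 267.2 kb, 11 at Sox4 and Cdkal1 over 813.5 kb and 10 near Cpeb2 over 414.1 kb all fell. On chromosome 18, 14 neighbouring peaks at Mbd2 and Mex3c fell over 2897.9 kb. On chromosome 3, 9 peaks over 118.6 kb with no named gene fell by 1.96 to 4.03. The longest runs of higher peaks had 9 members, at Il21r, at Bcl2, at Il12rb2 and near Dyrk2.

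The share of called peaks differed with place. Within 1 kb of a gene end, 5.88% of 10850 peaks rose and 9.13% fell. Inside genes 20.4% of 14157 rose and 17.5% fell, and 1 to 50 kb from a gene 18.8% of 7572 rose and 17.7% fell. Beyond 50 kb of any gene, 14.6% of 3672 peaks rose and 27.8% fell, with a median change of -0.16. The median SE was 0.203 near gene ends and 0.346 beyond 50 kb. Within the 25% of peaks with the highest mean level, 4.06% of the peaks at gene ends rose and 11.7% fell, against 15.9% and 25.9% beyond 50 kb.

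**Figure D5:**
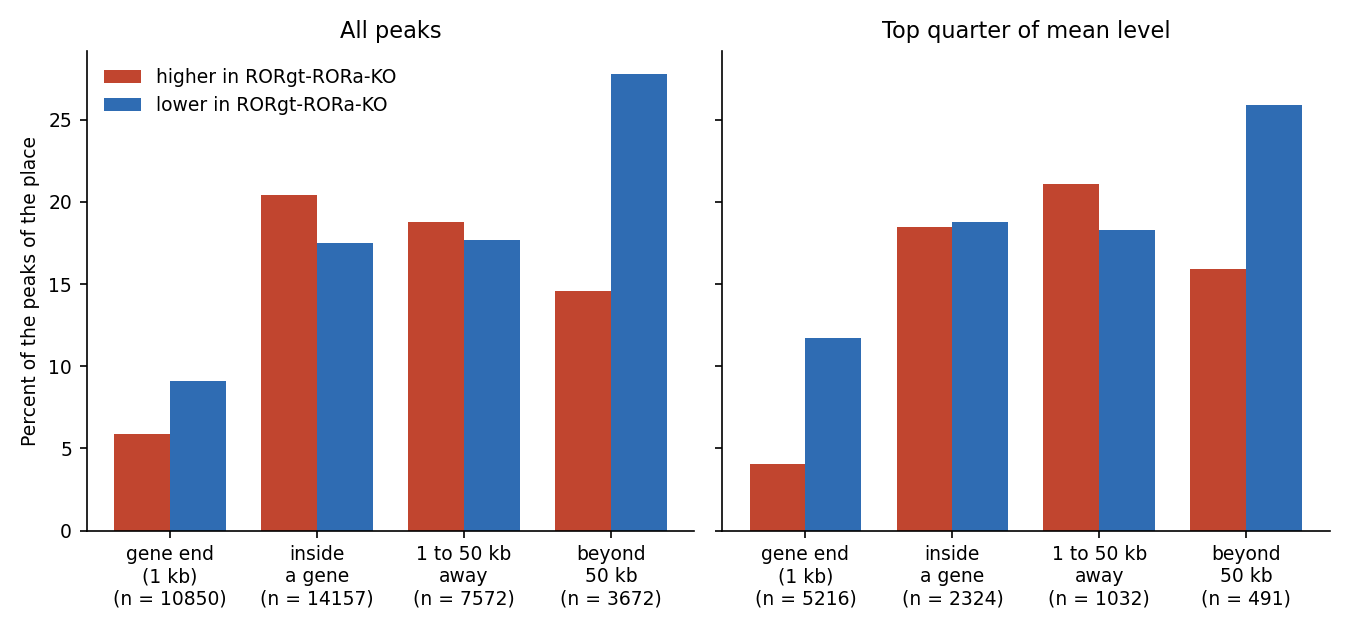
Percent of peaks called higher and lower in RORgt-RORa-KO by place, for all peaks and for the 25% with the highest mean level. Peaks near gene ends have the smallest shares in both panels, and peaks beyond 50 kb of a gene are lower more often than higher.

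Promoter windows, from 250 bases before to 50 after a RefSeq start, were overlapped by 8173 peaks, of which 4.54% rose and 8.33% fell, but at least 2-fold only 76 rose and 84 fell. Besides Il17f and Ednrb, large promoter losses picked after their values were seen were S100a4, a calcium-binding protein gene (change -2.23, SE 0.32), and Unc5c, a netrin receptor gene (-1.88, SE 0.20). Large gains picked in the same way were Ccl3 (2.99, SE 0.68), Shc1 (2.74, SE 0.41), Ctla2a (2.26, SE 0.25) and the interferon-induced gene Ifit3b (1.78, SE 0.26).

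The 4 motifs sought in the printed promoters, and the E box CACGTG, were counted in all 32817 windows of 250 bases. Each RefSeq start has its own window, so 1 peak can lie over several windows, which can overlap. The motif AGGTCA was in 12.4% of 971 windows under lower peaks, 8.68% of 576 under higher peaks and 9.68% of 10118 under peaks that were not called, and in 14.0% of all windows. The RUNX site TGTGGT was in 10.6% under lower, 18.9% under higher and 10.2% under uncalled peaks. Over all windows it was in 14.0%. The AP-1 site TGANTCA was in 3.4%, 6.94% and 3.83% of the same sets and in 6.75% of all windows. The T-box element AGGTGTGA was in 5, 7 and 69 windows of these sets (0.515%, 1.22% and 0.682%) and in 1.12% of all windows. The E box CACGTG was in 10.5%, 5.9% and 8.95%, and in 6.02% of all windows. Windows under higher peaks held fewer CpG pairs, a median of 13 against 16 under lower and 17 under uncalled peaks, and the sets differ in base composition.

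The X chromosome stood apart, with 6.06% of 940 peaks higher and 18.0% lower, against 15.4% and 16.0% on the autosomes. The libraries also differed in Y reads. At 4 peaks of the Y chromosome, the reads were 187, 0 and 183 in RORgt-RORa-KO and 0, 0 and 222 in Control, while the X held 2.06%, 2.45% and 2.06% of reads in RORgt-RORa-KO and 2.56%, 2.64% and 2.14% in Control. With the presence of Y reads as a covariate, 8.51% of X peaks rose and 15.2% fell, and on the autosomes 15.2% rose and 15.7% fell. The part of sex in the X values was not tested beyond this. Chromosome 11 had 16.0% of its peaks higher and 9.71% lower, and chromosome 3 had 10.2% higher and 21.9% lower.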

How the data were processed

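Reads were trimmed (Trim Galore 0.62), aligned to GRCm38 (Bowtie2 2.3.5.1) and filtered (SAMtools), and peaks were called (MACS2), per the submitters' processing notes. The authors deposited log2 values of scaled read counts in 1 table of 36262 peaks, and no source used here tells how the scaling was set. As linear numbers, all non-empty values were whole multiples of 1 step per library within a tolerance of 0.01, which recovered the reads. The 11 Y peaks were left out. Protein-coding genes from RefSeq (GRCm38.p6) named 32579 peaks at up to 50 kb from the gene.

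The test was limma 3.58.1 (R 4.3.3) on these log2 values, with 1 mean per group over all 4 groups, a trend of variance on level, 6 residual and 22.5 prior degrees of freedom, and Benjamini-Hochberg adjustment over all peaks at 0.05. The script was tested on simulated data. The members and the 25 gene lists (403 genes, 353 with a peak) were chosen with earlier results of these data known, and lists are described by counts alone. Named peaks are those of Rora, Il17a, Il17f, Il22, Ifng, Il12rb2 and Tbx21, the 10 largest increases and decreases (non-overlapping libraries, 20 reads), the best peaks of each list, the 10 genes with most peaks called in 1 direction and the 5 longest runs. Some peaks that the rule names are not reported here. Alternatives covered scaling, trend, filter, pseudocount, weights, block, voom and leaving out each library. Y reads as a covariate were added after the data were seen. Figures used matplotlib 3.10.9.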

Additional observations from a re-analysis of the deposited data

How the results depend on the processing

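Across 16 alternatives, the count of called peaks ran from 8474 (the 25% of peaks of lowest level left out) to 12177 (voom), against 11326. Leaving out each library gave 9082 to 11851 peaks, 4396 to 5750 higher and 4455 to 6101 lower. With the filter on level, 4529 rather than 7384 peaks changed at least 2-fold, in part because fewer peaks were tested. It also left 12 rather than 19 type 3 cytokine peaks called lower, and 4 rather than 12 T-box, STAT and effector factor peaks. With this filter, lower survival and death peaks numbered 6 rather than 11, and lower TGF-beta peaks 5 rather than 8. Lower epithelial peaks numbered 1 rather than 2 with it, also with library weights. Higher clock peaks numbered 3 rather than 5 with the filter. Without the mean-variance trend, lower cytokine receptor peaks numbered 4, lower survival and death peaks 7 and lower epithelial peaks 1. In that setting 1 myeloid peak fell, and higher TGF-beta peaks numbered 4. With only RORgt-RORa-KO and Control in the fit, 7 survival and death peaks fell and 2 stromal peaks rose. Lower ILC identity peaks numbered 2 rather than 5, both with this fit of 2 groups and without the mean-variance trend. Higher neuropeptide receptor peaks numbered 7 with voom, quantile normalization or the block. Added after the data were seen, Y reads as a covariate gave 11132. Of 198 named peaks, 187 were called, 170 of these in all settings in which they were tested, 17 not in at least 1, and 0 reversed. With the replicate block the count was 11985. Deviations from the group means correlated at -0.0482, 0.143 and 0.0107 between same-numbered libraries, and at -0.098 to 0.106 between the others. With 3 libraries per group, these values cannot decide whether the numbers pair the samples. Depth limits peaks with few reads: the median SE was 0.478 in the lowest 25% by level and 0.177 in the highest.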

Other observations

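Other genes with many peaks called in 1 direction lie outside the lists. Prex1, a Rac exchange factor gene, rose at 8 of 17 peaks and Plcl2 at 8 of 14. Mrvi1 rose at 7 of 8 peaks, B4galt5, a galactosyltransferase gene, at 7 of 10, Tnrc6b, a gene of the microRNA silencing machinery, at 7 of 12 and Vgll4, a TEAD cofactor gene, at 7 of 13. Its best peak stood at 8.07, 7.84 and 7.74 in RORgt-RORa-KO, against 6.44, 6.58 and 6.76 in Control (change 1.29, SE 0.18). Among losses, Prkag2, an AMP kinase subunit gene, fell at 7 of 9 peaks. One of these was at 4.48, 4.28 and 4.09 in RORgt-RORa-KO, against 7.61, 7.34 and 7.14 in Control (change -3.08, SE 0.32). Plxnc1, a semaphorin receptor gene like Plxna2, fell at 7 of 11 peaks, by 0.56 to 1.75. Eml6 fell at 7 of 10, Fam155a at 8 of 12, Crispld2 at 7 of 8 and Fhit at 7 of 12 peaks. The direction of these peaks chose the genes, so the counts are a description.

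Chromosome 18 had 13.7% of its 1274 peaks higher and 22.1% lower, and chromosome 17 had 17.6% of 1622 higher and 12.8% lower. By length, 9.29% of the longest 25% of peaks rose and 14.4% fell, against 15.1% and 16.1% over all peaks.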
